A study of Mus musculus with 4 samples.

Results

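The 8 genes Msln, Upk1b, Upk3b, Wt1, Lrrn4, Gpm6a, Calb2 and Bnc1, taken as a list of mesothelial markers, were followed in lung cells of bleomycin-treated mice. They were chosen by name, and each was represented by its row of the deposited value table, with the brightest row kept where a gene has several. All 8 were found among the 30142 genes that have a row with exactly 1 gene symbol, and each of the 8 had a single row. The samples were cells of C57BL/6 lung lacking CD45, the surface protein of leukocytes, from mice given phosphate-buffered saline (PBS) or bleomycin (BLM), a DNA-damaging drug that injures the lung and leads to fibrosis, through the trachea, with RNA taken at day 10. There were 4 Affymetrix arrays, 2 for PBS and 2 for BLM, and the single comparison is BLM against PBS during fibrosis development. The labels give no sex, age or drug dose, nor do they state whether the 2 samples of a group are separate animals; the p-values therefore reflect the spread between samples, which could be technical only.

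The mesothelium is the flat, single-layered epithelium that covers the lung surface and lines the pleural cavity. It secretes a lubricating, hyaluronan-rich fluid, carries both epithelial and mesenchymal features, and descends from the coelomic lining, where the zinc finger factor Wt1 is active and retinoic acid is made. In models of lung fibrosis, mesothelial cells have been studied both as a surface cell that is injured and as a cell that can take on mesenchymal features.

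All values below are deposited log2 values, differences are BLM minus PBS on that scale with a standard error (SE), and a gene rose or fell only if its adjusted p in limma was below 0.05. By that rule 25.3% of all genes were called, 15.2% higher and 10.1% lower in BLM. Of the calls, 60.1% were higher, against 49.6% after cyclic loess scaling of the arrays. Among genes at or above the median level, 25.3% were higher and 17.4% lower in BLM. The shares of genes higher and lower are the background for each list count below. Without BLM replicate 1 the total of 7629 called genes became 4003, and without BLM replicate 2 it became 4379. Xist, the RNA of the inactive X chromosome, was at 15.86 and 15.61 in PBS and at 5.60 and 5.43 in BLM, while Eif2s3y, Uty and Kdm5d, on the Y chromosome, rose by 2.63, 2.44 and 2.14. Treatment and this sex-linked difference cannot be told apart in any result below. Of 9 leukocyte markers, 6 rose despite the CD45-negative label, 2 did not pass and the lysozyme gene Lyz2 fell by 1.14. Ptprc, which encodes CD45, was at 6.30 and 6.21 in PBS and 7.19 and 7.20 in BLM.

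Of the 8 mesothelial markers, 4 rose, none fell and 4 did not pass. Upk1b, Msln, Lrrn4 and Upk3b, all genes of membrane or cell surface proteins, rose by 2.31, 1.28, 1.02 and 0.92. Gpm6a, also a gene of a membrane protein, and Wt1, Bnc1 and Calb2 had differences of 0.39, 0.03, -0.0018 and -0.02. The median over the 8 was 0.65, against 0.05 over all genes, and 5 of the 8 had both BLM arrays above both PBS arrays, as did 38% of all genes. The median was 0.36 without PBS replicate 1 and 0.95 without PBS replicate 2, and the number that rose ranged from 3 to 5 with each array left out. In bulk RNA, more cells of a type and more RNA per cell cannot be told apart.

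**Figure D1:**
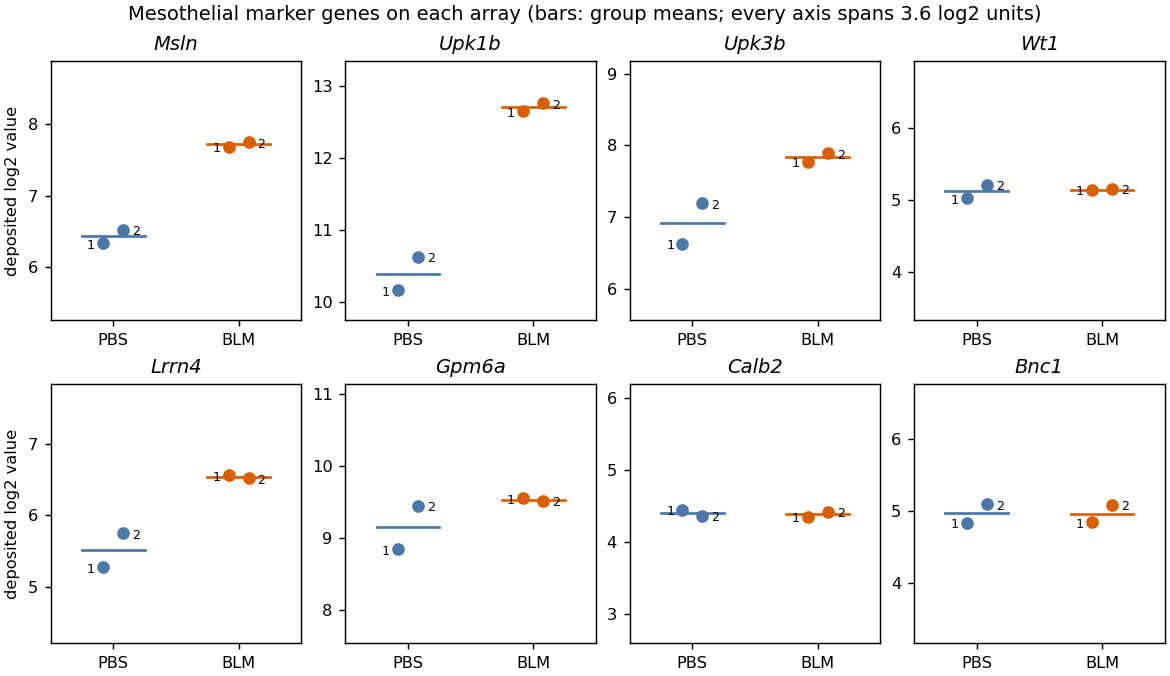
Deposited log2 value of each marker gene on the 4 arrays, PBS in blue and BLM in orange, with the replicate number beside each point and the group mean as a bar. Both BLM arrays lie above both PBS arrays for Msln, Upk1b, Upk3b, Lrrn4 and Gpm6a, and the groups overlap for Wt1, Calb2 and Bnc1.

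Upk1b encodes uroplakin 1b, a tetraspanin of the urothelial plaque that is also made by mesothelium. It was at 10.16 and 10.63 in PBS and at 12.65 and 12.77 in BLM, with the lower BLM array 2.02 above the higher PBS array. The rise of 2.31 (SE 0.17, n = 2 arrays per group, limma adjusted p = 0.000984) is 4.97-fold. Only 0.322% of all genes had a difference as high. The call held in all 10 alternative settings, where the difference was 2.08 to 2.55.

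Msln encodes mesothelin, a surface protein held by a lipid anchor that binds the mucin Muc16. Its values were 6.34 and 6.52 in PBS and 7.68 and 7.74 in BLM. The lower BLM array was 1.16 above the higher PBS array, while arrays of a group differed by at most 0.19. The rise was 1.28 (SE 0.10, limma adjusted p = 0.00115), or 2.43-fold, and 1.59% of genes had one as high. In 10 alternatives it stayed past the threshold, at 1.19 to 1.37.

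Lrrn4, a gene of a leucine-rich repeat membrane protein, was at 5.28 and 5.75 in PBS and 6.56 and 6.52 in BLM. It rose by 1.02 (SE 0.16, limma adjusted p = 0.0101). Both PBS values lay below 6.04, the median level of the array's negative control features, so no fold is given. The 9 alternatives that could be fitted kept the call, with adjusted p from 0.00531 to 0.0475. The filter on dim genes removed it, since its mean lay just under the median of all genes, 6.03.

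Upk3b, uroplakin 3b, is a single-pass membrane protein that can pair with uroplakin 1b in the urothelial plaque. It stood at 6.63 and 7.20 in PBS and at 7.77 and 7.89 in BLM. The higher PBS array was 0.58 below the lower BLM array, nearly the same as the 0.57 between the PBS arrays themselves. The rise of 0.92 (SE 0.19, limma adjusted p = 0.0233) was 1.89-fold. The call ended when either BLM array was left out (adjusted p = 0.0698 for replicate 1 and 0.0896 for replicate 2), and passed in the other 8 alternatives (from 0.00690).

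RefSeq start sites of GRCm38.p6 were listed for 4 of the 8 markers: Upk3b, Lrrn4, Bnc1 and Gpm6a, the last with 2 starts. Because Upk3b and Lrrn4 rose together and Bnc1 did not pass, the 250 bases upstream of these 3 starts are shown 5′ to 3′ on the gene's strand. Upk3b is at chr5:136038246-136038495 on the plus strand, Lrrn4 at chr2:132880863-132881112 on the minus strand and Bnc1 at chr7:81992300-81992549 on the minus strand. Capitals mark matches, on either strand, to GGAATG, the core bound by TEAD factors, or to GGGCGG, the GC box.
Upk3b: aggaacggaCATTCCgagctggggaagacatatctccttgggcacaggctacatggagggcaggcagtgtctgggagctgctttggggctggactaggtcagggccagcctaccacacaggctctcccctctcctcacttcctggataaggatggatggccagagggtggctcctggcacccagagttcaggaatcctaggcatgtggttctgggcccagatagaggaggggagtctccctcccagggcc
Lrrn4: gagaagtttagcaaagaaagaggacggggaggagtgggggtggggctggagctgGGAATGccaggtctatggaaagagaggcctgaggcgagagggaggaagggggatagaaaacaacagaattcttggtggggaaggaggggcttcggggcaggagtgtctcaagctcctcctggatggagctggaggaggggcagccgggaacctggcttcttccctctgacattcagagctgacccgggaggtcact
Bnc1: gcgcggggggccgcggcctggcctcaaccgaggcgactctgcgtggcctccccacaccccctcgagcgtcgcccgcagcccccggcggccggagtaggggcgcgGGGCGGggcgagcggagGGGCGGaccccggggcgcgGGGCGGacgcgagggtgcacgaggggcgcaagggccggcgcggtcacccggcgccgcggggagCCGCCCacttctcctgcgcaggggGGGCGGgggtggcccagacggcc
The Upk3b and Lrrn4 windows each hold 1 TEAD core and no GC box, whereas the Bnc1 window holds 5 GC boxes and no TEAD core. Of 32851 upstream windows of the same length, 12.64% hold a TEAD core and 32.74% a GC box. The upstream start of Gpm6a, which did not pass, also holds 1 TEAD core. GC content was 60.8% for Upk3b, 59.2% for Lrrn4 and 83.6% for Bnc1, with a median of 52.4% over all windows. The WT1/EGR motif GCGGGGGCG was in none of the 5 windows of these genes and in 2.57% of all. The E-box CAGGTG was in none of the 5 and in 17.22% of all, and TATAAA was in 1 of the 5, the downstream start of Gpm6a, and in 12.37% of all. The motifs do not overlap in the printed windows, and a match is only a run of letters. The printed windows were picked by the calls of their genes, and Msln and Upk1b had no listed start. A link between motifs and calls was not tested.

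Gpm6a encodes a membrane glycoprotein of neurons that mesothelial cells also express. It was at 8.84 and 9.45 in PBS and at 9.55 and 9.52 in BLM, so that PBS replicate 2 was within 0.07 of the lower BLM array. The difference was 0.39 (SE 0.20, 95% interval -0.12 to 0.90, limma adjusted p = 0.235). It depended on a single PBS array, at 0.08 without PBS replicate 1 (adjusted p = 0.605) and 0.69 without PBS replicate 2 (adjusted p = 0.0165), its lowest and highest value over 10 alternatives.

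Wt1, Calb2 and Bnc1 were dim on all 4 arrays. Wt1, the zinc finger factor of the coelomic lineage, was at 5.03 and 5.22 in PBS and 5.14 and 5.16 in BLM, a difference of 0.03 (95% interval -0.22 to 0.27). Calb2, the gene of the calcium-binding protein calretinin used to stain mesothelium, was at 4.44 and 4.36 against 4.35 and 4.41, a difference of -0.02 (95% interval -0.24 to 0.19). Bnc1, the zinc finger protein basonuclin 1, was at 4.84 and 5.10 against 4.85 and 5.09, a difference of -0.0018 (95% interval -0.34 to 0.33). The BLM and PBS values overlapped for each of these 3, and the sign of each difference turned in at least 1 alternative.

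The array also carries 5222 features named as negative controls, whose median level was 6.04. Wt1 lay above 31.4% of them, Bnc1 above 27.7%, Calb2 above 15.7% and Lrrn4 above 49.8%, while Msln lay above 68.0%, Upk3b above 72.7%, Gpm6a above 90.7% and Upk1b above 97.6%. By mean level, Wt1, Bnc1, Calb2 and, among the markers that rose, Lrrn4 lay below the control median. Msln and Upk3b, which also rose, lay above it but below the 75th percentile of the controls, 7.55. Only Upk1b lay above their 95th percentile, 10.38. Apart from Upk1b and Gpm6a, the markers were therefore not clearly above the controls. Differences of dim genes can be compressed toward 0 on this scale, which was not tested here. The array levels of different genes depend on their probes and were not ranked against each other. As a check of the mesothelial label, the defining markers Wt1 and Calb2 lay below the median of the controls in both groups. The label is used here for the gene list only.

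**Figure D2:**
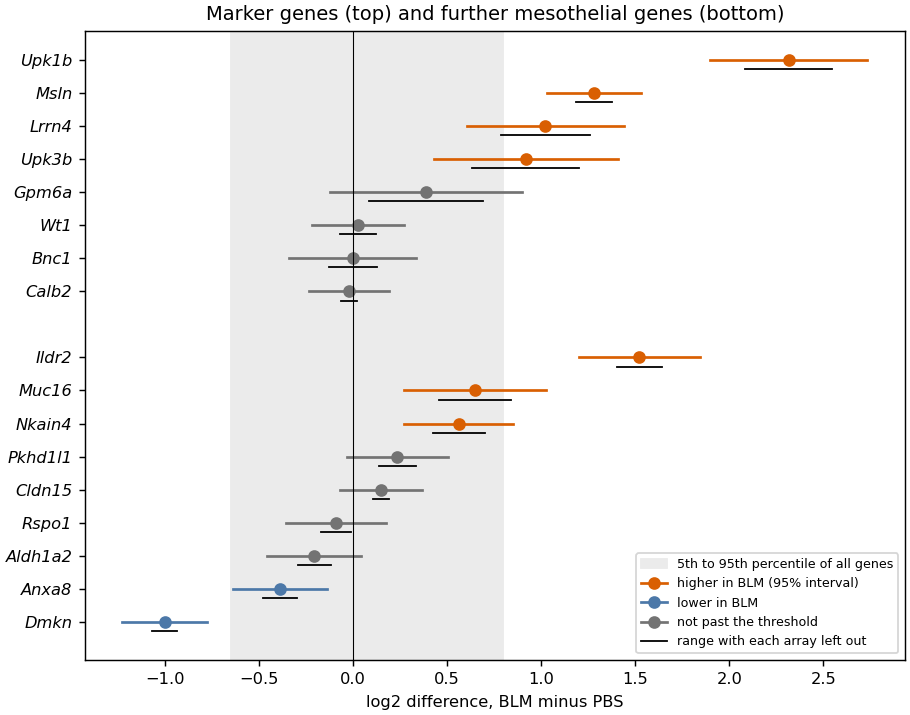
Log2 difference BLM minus PBS with its 95% interval for the 8 marker genes (top) and 9 further mesothelial genes (bottom), with the range over fits that leave out 1 array as a thin black line and the 5th to 95th percentile of all genes, -0.65 to 0.80, shaded. Upk1b, Msln, Lrrn4 and Upk3b lie above 0 with their whole interval, while Gpm6a, Wt1, Bnc1 and Calb2 do not.

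The PBS arrays differed from each other in these genes more than in most. In 7 of the 8 markers PBS replicate 2 was higher than replicate 1, by 0.61 for Gpm6a, 0.57 for Upk3b, 0.47 for Lrrn4, 0.46 for Upk1b, 0.26 for Bnc1, and 0.19 for both Wt1 and Msln, while Calb2 was lower by 0.08. The median of this gap was 0.36 over the 8 and -0.01 over all genes, of which 47.2% were higher on replicate 2. For Gpm6a, Upk3b, Lrrn4 and Upk1b the gap was larger than the 0.45 that bounds 95% of genes in absolute size, and only 0.574% of genes had a gap as high as Gpm6a's. This choice of measure was made after the values were seen, and no test was made of it.

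Between the BLM arrays the same gap was smaller. Replicate 2 was higher in 6 of 8 markers, with a median of 0.06, from -0.04 for Lrrn4 to 0.24 for Bnc1. Over all genes, 45.2% were higher on BLM replicate 2, with a median gap of -0.016. Other lists also differed between the PBS arrays. Higher on PBS replicate 2 were 7 of 7 alveolar type 1 markers (median 0.12), 5 of 5 endothelial markers (median 0.12) and 8 of 9 further mesothelial genes (median 0.17). The same was true of 1 of 4 club cell markers (median -0.07) and 2 of 6 alveolar type 2 markers (median -0.05). The Y-linked genes were also higher on PBS replicate 2, with Eif2s3y at 5.99 and 6.88, Uty at 6.19 and 6.84, and Kdm5d at 5.74 and 6.07 on replicates 1 and 2. The part of these in the marker differences was not tested.

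**Figure D3:**
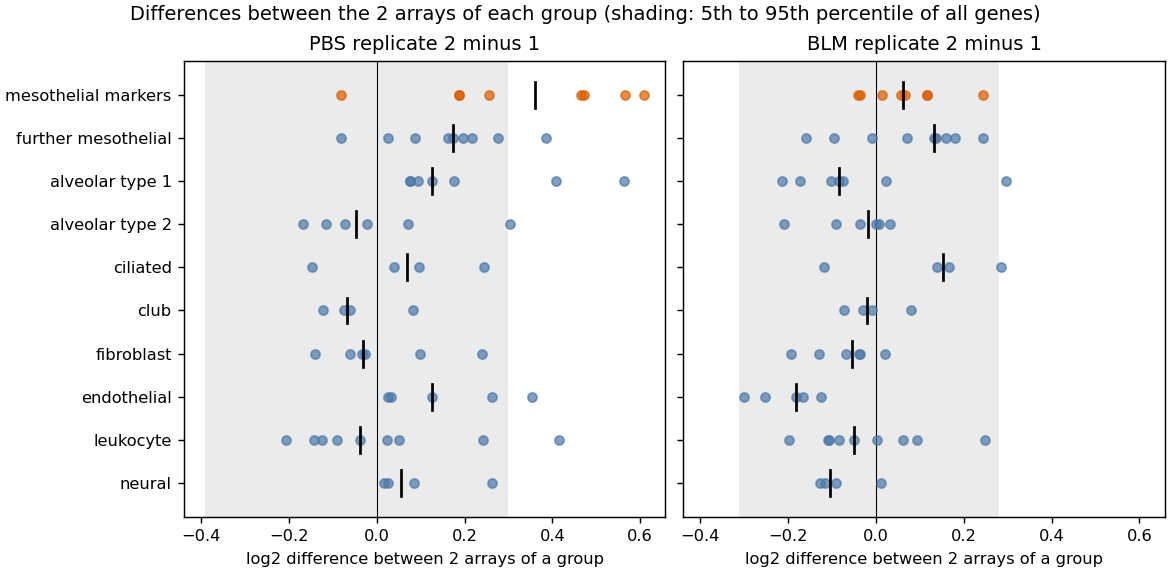
Log2 difference between the 2 arrays of each group for the genes of 10 lists, PBS replicate 2 minus 1 on the left and BLM replicate 2 minus 1 on the right, with list medians as black bars and the 5th to 95th percentile of all genes shaded. The mesothelial markers reach from -0.08 to 0.61 between the PBS arrays and from -0.04 to 0.24 between the BLM arrays.

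A list of 9 further mesothelial genes moved both ways, with 3 higher, 2 lower and 4 not passing (median 0.15). Muc16, the cell surface mucin that binds mesothelin, was at 6.51 and 6.89 in PBS and 7.43 and 7.27 in BLM, and rose by 0.65 (SE 0.15, limma adjusted p = 0.0310). Nkain4, a small membrane protein that interacts with the sodium pump, was at 6.83 and 7.11 against 7.54 and 7.53 and rose by 0.56 (SE 0.12, limma adjusted p = 0.0214). Ildr2, a membrane protein of the immunoglobulin family, was at 7.76 and 7.98 against 9.27 and 9.51 and rose by 1.52 (SE 0.13, limma adjusted p = 0.00141). Both BLM arrays were above both PBS arrays for these 3, which follows largely from their calls, and for 38% of all genes.

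Dmkn, the secreted epithelial protein dermokine, was at 10.13 and 10.16 in PBS and 9.08 and 9.21 in BLM, and fell by 1.0 (SE 0.09, limma adjusted p = 0.00170). Anxa8, a calcium-dependent membrane-binding annexin, fell by 0.39 (SE 0.10, limma adjusted p = 0.0415), a call that ended without any 1 of the arrays (adjusted p from 0.0703 to 0.206). The call of Muc16 ended when PBS replicate 1 was left out (adjusted p = 0.0683), and likewise for either BLM array (0.131 for replicate 1 and 0.0709 for replicate 2), and that of Nkain4 without the same arrays (0.0526, 0.0932 and 0.0861), although both passed in the other 7 alternatives. Of the 9 genes, 5 were called with all arrays, 4 without PBS replicate 2, and 2 without any other single array. Rspo1, a Wnt agonist, was at -0.09, Aldh1a2, the retinoic acid enzyme of the coelomic lining, at -0.21, the claudin gene Cldn15 at 0.15 and Pkhd1l1, a large membrane protein gene, at 0.24, all not past the threshold.

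Relatives of the markers outside the list gave 3 that rose and none that fell among 14 measured, with 11 not passing (median 0.05). Over all genes 15.2% rose and 10.1% fell, with a median that was also 0.05. Gpm6b, the paralogue of Gpm6a, rose from 9.13 and 9.10 to 10.49 and 10.50, by 1.38 (SE 0.08, limma adjusted p = 0.000549). Bnc2, the paralogue of Bnc1 found in fibroblasts, rose from 7.47 and 7.52 to 8.41 and 8.48, by 0.95 (SE 0.08, limma adjusted p = 0.00159). S100g, an EF-hand calcium-binding protein gene like Calb2, rose by 0.82 (SE 0.13, limma adjusted p = 0.0103) at a level above 44.6% of the negative controls, without BLM replicate 1 at an adjusted p of 0.0546. Whether a paralogue and its marker differ in their response was not tested.

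The other uroplakin genes did not pass. Upk1a was at -0.30, Upk2 at 0.01, Upk3a at 0.23 and Upk3bl, a gene related to Upk3b, at -0.13. Upk1a passed after removal of dim genes (adjusted p = 0.0460, against up to 0.392 in the other alternatives). The mesothelin relatives Mslnl, Otoa and Strc stood at 0.07, 0.0011 and 0.08, Calb1 at 0.04, and Lrrn1, Lrrn2 and Lrrn3 at 0.0091, 0.31 and -0.15. Lrrn2 passed after removal of dim genes (adjusted p = 0.0408, against up to 0.348 in the other alternatives).

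Of 12 genes that mesothelium shares with other lung cells, 6 rose, 1 fell and 5 did not pass (median 0.23). The secreted chaperone gene Clu rose by 1.87 (SE 0.08), the sialomucin gene Podxl, also of endothelium, by 0.97 (SE 0.15) and Pdpn, also of alveolar type 1 and lymphatic cells, by 0.78 (SE 0.13). Aldh1a1, a retinaldehyde dehydrogenase gene of several lung epithelia, fell by 1.52 (SE 0.10). Of the keratins of simple epithelia, Krt18 rose by 0.30 and Krt19 by 0.34, and Krt7 and Krt8 stood at 0.16 and -0.19. Leaving out any array ended the calls of Krt18 and Krt19, as did cyclic loess, at 0.12 (adjusted p = 0.323) and 0.15 (adjusted p = 0.220), the highest adjusted p of each over 10 alternatives. With each array left out, 4 or 5 genes of this list were called rather than 7, and 4 were called without PBS replicate 1, BLM replicate 1 or BLM replicate 2.

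In the retinoic acid pathway, through which the coelomic lining signals to its neighbours, 2 of 14 genes rose, 5 fell and 7 did not pass (median -0.03). Of all genes, 15.2% rose and 10.1% fell. Crabp1 and Crabp2, binding proteins for retinoic acid, rose by 0.87 and 0.80 (SE 0.08 each), Crabp2 at a level above only 26.8% of the negative controls. Beside Aldh1a1, Dhrs3, a retinaldehyde reductase gene, fell by 1.46 (SE 0.08). The retinol dehydrogenase gene Rdh10 at -0.52, the degrading enzyme gene Cyp26b1 at -0.45 and the receptor gene Rarb at -0.33 also fell and are named because they complete the count. The call of Rdh10 ended without BLM replicate 1 (adjusted p = 0.0723), that of Cyp26b1 without PBS replicate 1 (0.0968), PBS replicate 2 (0.110) or BLM replicate 2 (0.157), and that of Rarb without any 1 of the arrays (up to 0.246).

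Of 8 factors of the coelomic lineage, 4 rose, 1 fell and 3 did not pass (median 0.60). Tcf21, also a factor of lung fibroblasts, rose from 8.24 and 8.69 to 10.00 and 9.98, by 1.53 (SE 0.16), Nr2f2, also of veins and fibroblasts, by 1.29 (SE 0.12), Osr1 by 1.08 (SE 0.17) and Gata5 by 1.02 (SE 0.11). Gata6, also of lung epithelium, fell by 0.63 (SE 0.10), a call that ended without BLM replicate 2 (adjusted p = 0.0507, the highest of 10 alternatives).

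Of 11 genes of the mesenchymal transition described for mesothelial cells, 6 rose, 1 fell and 4 did not pass (median 0.72). Beside Col1a1 and Fn1, at 4.28 and 4.14 (SE 0.08 each), the transition factor gene Snai2 rose by 1.92 (SE 0.21) and the intermediate filament gene Vim by 1.19 (SE 0.09). Snai1 and Twist1, at 1.11 and 0.72, complete the 6, and the call of Twist1, which lay above only 30.4% of the negative controls, ended when BLM replicate 2 was left out (adjusted p = 0.0551). Snai1 lay above 57.0% of the negative controls. The epithelial cadherin gene Cdh1 fell by 0.69 (SE 0.09). Zeb1, Cdh2, Acta2 and Twist2, at 0.44, 0.24, 0.07 and 0.05, were the 4 that did not pass. As background, other lung cells express all of these genes too.

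Of 6 genes for hyaluronan and surface lubrication, 5 rose and 1 did not pass (median 0.82). Prg4, the lubricin gene, rose from 5.57 and 5.71 to 6.66 and 6.71, by 1.05 (SE 0.09). Both PBS values of Prg4 lay below 6.04, the median of the negative controls, and its mean lay above 52.2% of them. The hyaluronan synthase genes Has2 and Has1 rose by 1.13 (SE 0.08) and 0.60 (SE 0.13), and the hyaluronan receptor gene Cd44 by 1.13 (SE 0.09). The count was 3 without PBS replicate 2 and 3 without BLM replicate 2, each without Has1 (adjusted p = 0.0898 and 0.103). The hyaluronidase gene Hyal2 rose by 0.34, but no fit that left out an array called it (adjusted p from 0.0767 to 0.186), nor did the replicate block or cyclic loess (0.0586 and 0.0973).

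**Figure D4:**
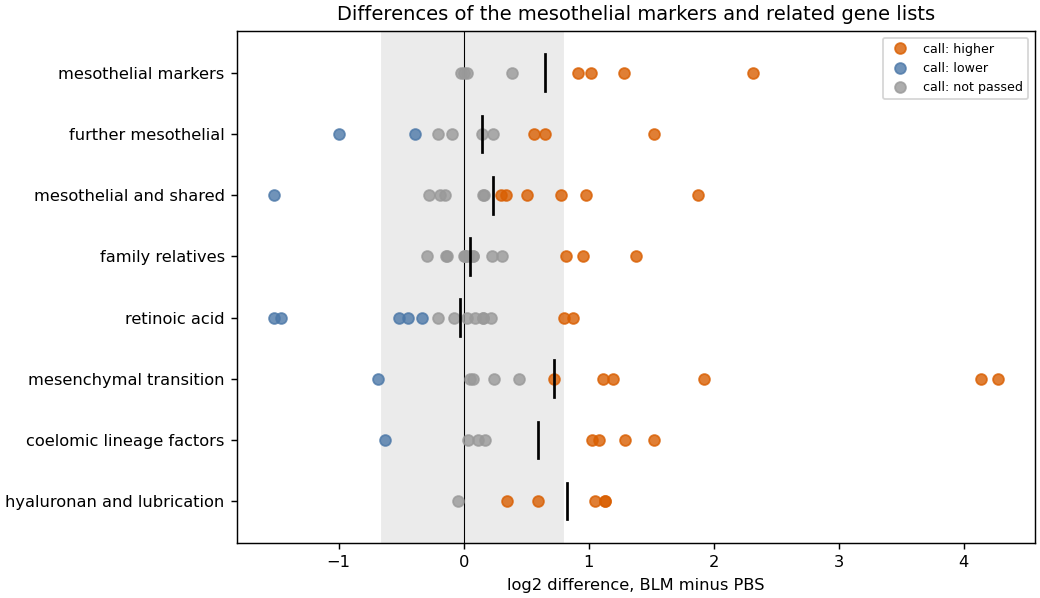
Log2 difference BLM minus PBS of every measured gene in 8 lists, coloured by its call in limma, with list medians as black bars and the 5th to 95th percentile of all genes shaded. The mesothelial markers have 4 genes called higher and none lower, whereas the retinoic acid list has 2 higher and 5 lower.

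Markers of other cells moved on the same arrays. Of 6 fibroblast markers, 5 rose (median 3.0), with a mean level of 10.87 and 10.88 in PBS and 13.37 and 13.30 in BLM. Of 6 alveolar type 2 markers, 5 fell (median -0.85), as did 4 of 4 ciliated and 4 of 4 club cell markers (medians -2.12 and -1.43). Leukocyte markers had a mean level of 7.75 and 7.77 against 8.80 and 8.79. Of 5 endothelial and 5 transitional epithelial markers, 3 and 4 rose and none fell. The part of these cells in the marker differences was not tested. Neural markers, relevant because neurons express Gpm6a and Calb2, did not pass, 0 of 4, with differences from -0.03 to 0.13.

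The mean pattern of the 8 markers, each centred on its own mean, was -0.54 and -0.20 in PBS and 0.34 and 0.40 in BLM. The 5 genes nearest to it by Euclidean distance over the 4 arrays were Ndufs5, Trim30d, Dcaf4, Gm26782 and Scamp3, at distances of 0.0357 to 0.0481. Ndufs5, a subunit gene of respiratory complex I, was at 7.78 and 8.11 in PBS and 8.64 and 8.75 in BLM. Apart from the members, 406 of the 30142 genes lay within 0.2 of the pattern. With 4 arrays such likeness shows no shared role, and the pattern averages markers that rose and markers that did not pass.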

How the data were processed

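The authors deposited log2 values, 1 for each transcript cluster of each array. Per the submitters' processing notes, RMA and Affymetrix Expression Console produced them; their versions and the array's genome build were not given in the sources used here. RMA subtracts background, equalises the distributions of the arrays and merges the probes of a cluster, and the number of arrays limits the precision.

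Of 72688 features, 32750 clusters were in the platform annotation, 30604 of them with 1 distinct symbol; 827 symbols were updated through Entrez identifiers to RefSeq. Clusters with several symbols or none were left out, which gave 30142 genes. Treatment was tested by lmFit and eBayes of limma 3.58.1, run in R 4.3.3 (two-sided, 2 residual degrees of freedom), with Benjamini-Hochberg adjustment over all genes. No filter on low values was applied. The script was tested on simulated data.

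The members and gene lists were chosen with earlier results of these data known. Named genes were all 8 members, every measured gene of the further mesothelial and relatives lists, up to 4 called genes with the largest absolute difference in each other list, the 5 genes nearest to the members' mean pattern, the sex-linked genes as a check of the samples, and genes that complete a small count. Alternatives were a replicate block, leaving out each array, averaging the rows of a gene, dropping genes below the median level (the filter on dim genes), a trended robust prior, cyclic loess and median centring.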

Additional observations from a re-analysis of the deposited data

How the results depend on the processing

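Of the 8 marker genes, 6 kept their side of the threshold in every alternative that could be fitted, Gpm6a and Upk3b being the exceptions described above; 4 rose with the replicate block, the trended robust prior and cyclic loess, and none fell in any alternative. The filter on dim genes kept only 4 of the 8, of which 3 rose, with a median of 1.10. With each array left out, the median over the 8 was 0.36 to 0.95, the further mesothelial genes called numbered 2 to 4, those shared with other cells 4 to 5, those of hyaluronan and lubrication 3 to 4, and all genes called 4003 to 5956. No pairing by replicate number was seen (correlation over genes of the deviations of PBS replicate 1 and BLM replicate 1, 0.014). This single value over all genes cannot exclude a pairing. With the replicate block, 6742 genes were called, and among named genes Anxa8, Krt18, Krt19, Hyal2, Cyp26b1 and Rarb lost their calls (adjusted p = 0.0703, 0.0814, 0.0656, 0.0586, 0.0522 and 0.0685).

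Differences near 0 changed sign, none of them called in any setting. With each array left out, Bnc1 ranged from -0.13 to 0.13, Calb2 from -0.063 to 0.019, Wt1 from -0.067 to 0.12, Calb1 from -0.023 to 0.096, Lrrn1 from -0.058 to 0.076, Otoa from -0.040 to 0.042 and Upk2 from -0.054 to 0.081. With cyclic loess, Wt1 was at -0.011, Calb1 at -0.0071, Lrrn1 at -0.034, Otoa at -0.034 and Upk2 at -0.022, and with median centring Lrrn1 was at -0.012, Otoa at -0.020 and Upk2 at -0.0077. The cause was not tested.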
